A study of Mus musculus with 12 samples.

Results

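Chil3, Arg1, Retnla, Ear2 and Tgm2 are 5 mouse genes widely used as marks of alternatively activated macrophages, and they were found by symbol in all 5 cases among the 46072 genes of the table analysed here. They were chosen because of their levels in these cells, so their levels and fold changes are given as a description and without a test. Expression was measured by RNA sequencing in osteoclasts, which resorb bone and were grown with 30 ng/ml M-CSF plus 50 ng/ml RANKL, in immature dendritic cells, grown with GM-CSF (20 ng/ml), and in macrophages, grown with M-CSF alone (30 ng/ml). All cells came from C57BL/6J bone marrow (mice of 6 to 8 weeks of age), in medium with 0.8 mM arginine, over 8 to 10 days. Each cell type has 4 libraries, 12 in all, and per the labels each experiment took its 3 cell types from the same mouse. Osteoclast and macrophage precursors were first expanded in M-CSF, and whether the dendritic cells also were is not clear from the labels. Osteoclast cultures were briefly treated with Accutase, which takes off cells with a single nucleus, and no other sorting of the cultures is described.

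Alternative activation is the state that macrophages take on in response to interleukin-4 (IL-4) and interleukin-13 (IL-13), which act through the receptor chain encoded by Il4ra and the transcription factor STAT6. It is known from helminth infection, allergy and tissue repair, and its classical counterpart follows interferon gamma and microbial products. GM-CSF signals mainly through STAT5 and supports dendritic cell, macrophage and granulocyte growth from marrow. Chil3 encodes a secreted chitinase-like lectin (Ym1), Arg1 the urea cycle enzyme that splits arginine to ornithine and urea, Retnla a secreted resistin-like protein (FIZZ1 or RELM alpha), Ear2 a secreted ribonuclease of the eosinophil-associated group, and Tgm2 the tissue transglutaminase that crosslinks proteins.

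Of the label markers, all 9 of 9 for osteoclasts were called higher in osteoclasts than in macrophages by the authors' deposited table, and 7 of 9 than in dendritic cells. The other 2, Ocstamp and Dcstamp, were not called against dendritic cells, and 5 of 9 osteoclast markers were called higher in dendritic cells than in macrophages in the authors' deposited table. All 8 of 8 dendritic cell markers were called lower in osteoclasts than in dendritic cells, and higher in dendritic cells than in macrophages, in the authors' deposited table. Of all genes tested, 14.5% were called higher in osteoclasts than in macrophages and 16.8% higher than in dendritic cells. A further 20.1% were called lower in osteoclasts than in dendritic cells. Between dendritic cells and macrophages 20.3% were called higher in dendritic cells. Flt3, a receptor of conventional dendritic cells, stayed low in dendritic cells, with a mean of 0.749 in osteoclasts, 13.8 in dendritic cells and 0.489 in macrophages by the authors' deposited table. Of 7 macrophage markers, 6 were called lower in osteoclasts than in macrophages by the authors' deposited table, beside 14.7% of all genes. In dendritic cells 6 of 7 were called lower than in macrophages, beside 16.4% of all genes. Csf1r, the M-CSF receptor and a macrophage marker, was high in all the cultures. Its mean in the authors' deposited table was 34250.4 in osteoclasts, 29251 in dendritic cells and 63822 in macrophages. Granulocyte markers were also present in the dendritic cultures and are given below. In bulk RNA, fewer cells of a type and less RNA per cell cannot be told apart. The means sum to 2.42e+07 in osteoclasts, 2.77e+07 in dendritic cells and 2.50e+07 in macrophages, and size factors ran from 0.975 to 1.04.

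Values are the authors' mean counts per cell type, normalised by size factor. The table holds no column per library, but each mean is a sum of whole reads divided by 4 size factors, and for low genes only 1 set of 4 read counts gives the printed mean. Libraries recovered this way are called a to d in order of falling size factor within a cell type. The letters cannot be tied to a mouse, and library a of a cell type need not match library a of another. Errors after a recovered mean are standard deviations over those 4 libraries. Errors after a log2 fold change are standard errors implied by the authors' p-value. The deposited log2 fold changes can be smaller in size than the ratio of the means beside them. F13a1, for example, had means of 18.5 in osteoclasts and 1972 in macrophages, with a deposited log2 fold change of -3.80. Ratios of means and fold changes are therefore separate measures, and ranks and medians use the fold changes. A gene counts as called where the authors' adjusted p was under 0.05.

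Chil3, Arg1, Retnla and Ear2 were abundant in dendritic cells and low in osteoclasts and macrophages, while Tgm2 was high in all 3 cell types and highest in dendritic cells. All 5 of 5 were called lower in osteoclasts than in dendritic cells by the authors' deposited table, where 20.1% of the 21217 genes tested were called lower, 16.8% higher and 36.9% in either direction. All 5 of 5 were called higher in dendritic cells than in macrophages by the authors' deposited table, where 20.3% of 20730 genes were, with 16.4% lower and 36.7% in either direction. Between osteoclasts and macrophages 0 of 5 were called in the authors' deposited table (0 also at an unadjusted p under 0.05 in the authors' DESeq2 test), where 29.3% of 17822 genes were called in either direction, 14.5% higher and 14.7% lower. Both comparisons with dendritic cells share the same dendritic cell libraries. The genes were chosen from these contrasts, so nothing is read from these counts.

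**Figure D1:**
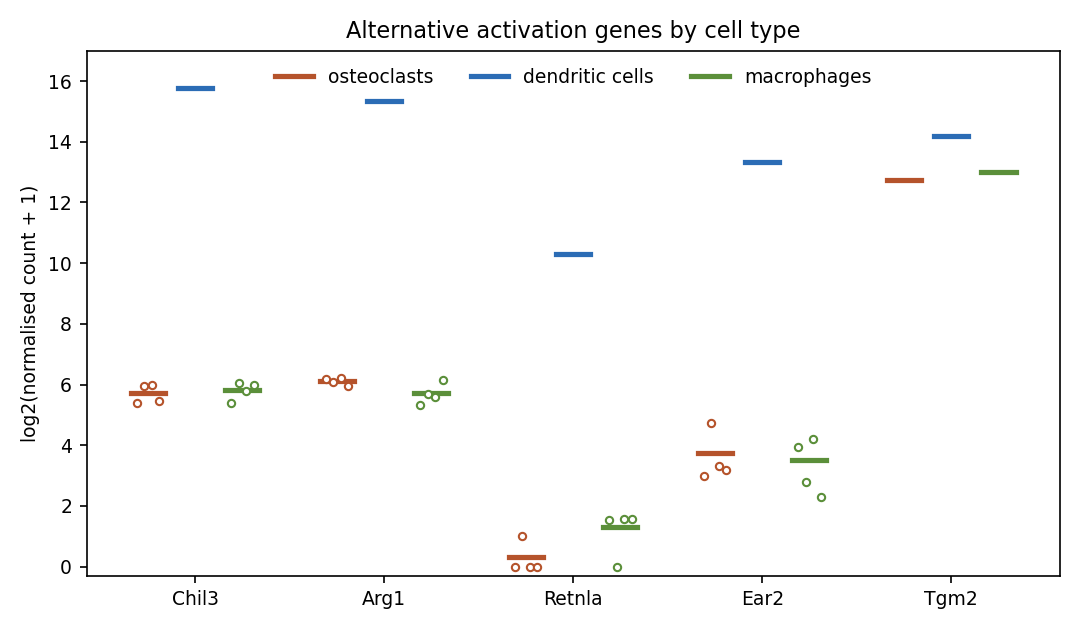
Levels of the 5 genes, with log2(normalised count + 1) on the y axis and, for each gene, osteoclasts, dendritic cells and macrophages from left to right. Bars are the authors' mean of 4 libraries and open circles are the recovered libraries, which exist here for osteoclasts and macrophages only. Dendritic cells stand far above both others for Chil3, Arg1, Retnla and Ear2, while Tgm2 lies at 6799 in osteoclasts, 18737 in dendritic cells and 8200.0 in macrophages.

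Chil3 lies on chr3:106147554-106167564 on the minus strand (GRCm38, GENCODE M21, protein coding). In osteoclasts its 4 libraries had 40.7, 60.6, 62.1 and 43.3 normalised counts, and in macrophages 41.2, 65.2, 54.6 and 62.9. The mean was 51.7 ± 11.2 in osteoclasts and 56.0 ± 10.9 in macrophages (SD, n = 4 each), so the ranges overlap and the difference is smaller than the spread. Dendritic cells had a mean of 56362 in the authors' deposited table, too high for the 4 libraries to be resolved. That is 1090.5 times the osteoclast mean and 1007 times the macrophage mean of the authors' deposited table. The log2 fold change in the authors' deposited table was -9.78 ± 0.38 for osteoclasts over dendritic cells, -0.11 ± 0.39 for osteoclasts over macrophages and 9.67 ± 0.38 for dendritic cells over macrophages. By size it ranked 9th lowest of 21217 for osteoclasts over dendritic cells and 10th highest of 20730 for dendritic cells over macrophages. Per kilobase of exon the dendritic cell mean was 34536, rank 29 of all genes in that cell type.

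Chil3 has a close copy, Chil4 (Ym2), also a chitinase-like protein, on the same chromosome. Their start regions are shown because both genes were higher in dendritic cells and their sequences are near copies. The 300 bases from 250 before to 50 after each RefSeq start (GRCm38.p6) are chr3:106167515-106167814 for Chil3 and chr3:106219430-106219729 for Chil4, both on the minus strand, 5′ to 3′. Capitals mark the bases that differ between them where they align.
Chil3: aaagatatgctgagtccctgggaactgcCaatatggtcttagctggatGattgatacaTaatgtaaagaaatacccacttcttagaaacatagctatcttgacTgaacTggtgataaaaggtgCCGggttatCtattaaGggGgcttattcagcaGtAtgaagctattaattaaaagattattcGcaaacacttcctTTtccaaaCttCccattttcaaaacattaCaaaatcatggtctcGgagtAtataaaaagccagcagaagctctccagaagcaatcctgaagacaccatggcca
Chil4: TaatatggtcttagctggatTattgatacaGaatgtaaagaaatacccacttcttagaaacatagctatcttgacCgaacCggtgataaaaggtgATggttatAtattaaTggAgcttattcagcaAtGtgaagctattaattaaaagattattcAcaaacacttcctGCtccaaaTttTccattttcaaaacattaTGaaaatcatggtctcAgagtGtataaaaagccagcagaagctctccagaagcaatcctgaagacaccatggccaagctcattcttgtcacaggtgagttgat
Of 273 aligned columns 251 were identical (91.9%), 20 differed and 2 were gaps. Each holds TTCNNNGAA, the form of site that STAT5 binds, starting at -172 in Chil3 and -200 in Chil4 relative to the listed start, and 8.30% of 32851 mouse promoters of this length hold these letters on either strand. TATAAA, held by 13.6% of promoters, starts at -3 in Chil3 and -31 in Chil4. TTGCNNAA, a C/EBP-type sequence held by 10.8% of promoters, is in the Chil4 window (in reverse, at -131) and not in that of Chil3. These matches are a description of the letters in the window.

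The levels of the copies were far apart. Chil4 was listed at 0 in osteoclasts and macrophages and had a mean of 44.6 ± 25.7 in dendritic cells (SD, n = 4). Its dendritic cell libraries had 45.8, 25.4, 80.6 and 26.7 normalised counts, highest in library c. The dendritic cell mean of Chil4 was 59.6 times a floor of 3 reads over the osteoclast group and 61.2 times that floor in macrophages. The spread over the dendritic cell libraries is not part of these ratios. Of the 1629 stretches of 50 bases (the read length) in the spliced Chil3 sequence, 26.9% also occur in another gene, 275 in Chil4 and 217 in the pseudogene Gm6522. The sources used here do not give how reads in those stretches were counted, and the split between Chil3 and Chil4 is uncertain. Gm6522 was at 0 in osteoclasts and macrophages and at 16.6 in dendritic cells by the authors' deposited table.

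Arg1 lies on chr10:24915221-24927484 on the minus strand. Its osteoclast libraries had 71.5, 66.6, 73.1 and 61.5 normalised counts and its macrophage libraries 39.3, 50.6, 46.8 and 69.8. Osteoclasts averaged 68.2 ± 5.26 and macrophages 51.6 ± 13 (SD, n = 4 each), and macrophage library d lay within the osteoclast range. The dendritic cell mean was 41909 in the authors' deposited table, 615 times that of osteoclasts and 812 times that of macrophages. Log2 fold changes in the authors' deposited table were -8.97 ± 0.39 for osteoclasts over dendritic cells, 0.38 ± 0.40 for osteoclasts over macrophages and 9.35 ± 0.39 for dendritic cells over macrophages. Per kilobase of exon its dendritic cell mean was 18810.1, rank 48, below that of Chil3. None of its 2183 stretches of 50 bases occurs in another gene.

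Retnla lies on chr16:48842551-48844461 on the plus strand and was the least abundant of the 5 genes per kilobase in each cell type. In osteoclasts a single read was recovered, in library b (0.994 normalised counts), and the other libraries had 0. Macrophage libraries had 1.92, 0, 1.95 and 1.97, from 6 reads in all. Dendritic cells had a mean of 1275 in the authors' deposited table. That is 5133 times the osteoclast mean, with an exact 95% Poisson interval from 921 to 202752 on the single read, and 875 times the macrophage mean, with an interval from 402 to 2383. The intervals cover counting error only. The log2 fold change in the authors' deposited table was -10.19 ± 0.73 for osteoclasts over dendritic cells, the 3rd lowest of all, -1.11 ± 0.82 for osteoclasts over macrophages, and 9.08 ± 0.60 for dendritic cells over macrophages.

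Within dendritic cells 3 sets of read counts give the printed Retnla mean. In all 3 sets library b was the lower of the libraries that could be bounded, at 400.0 to 481, while library c had 1033 to 1058. Libraries a and d were not resolved, with 111 to 3534 and 133 to 3450. The Retnla start region, chr16:48842359-48842658 on the plus strand (RefSeq, GRCm38.p6), is shown because STAT6 and C/EBP sites there are known to carry its response to IL-4. Capitals mark a match to TTCNNNNGAA, the spacing STAT6 prefers, and one to TTGCNNAA, a C/EBP-type sequence.
Retnla: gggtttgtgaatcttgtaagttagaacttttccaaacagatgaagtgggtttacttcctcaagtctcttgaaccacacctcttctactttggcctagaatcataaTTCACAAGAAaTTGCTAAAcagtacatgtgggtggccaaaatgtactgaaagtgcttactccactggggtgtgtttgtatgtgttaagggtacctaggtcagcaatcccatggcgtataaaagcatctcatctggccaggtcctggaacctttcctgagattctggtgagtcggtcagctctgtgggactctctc
The matches start at -145 and -134 relative to the listed start and do not overlap. In the same window size 6.95% of the 32851 promoters hold TTCNNNNGAA and 10.8% hold TTGCNNAA on either strand. The Retnla window also holds GAGGAA (in reverse, at -196), which 28.3% of promoters hold, and TATAAA at -30.

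Ear2 lies on chr14:44102654-44103534 on the plus strand, fully overlapped by the lincRNA Gm49101 on the other strand. Its osteoclast libraries had 6.95, 25.8, 9.01 and 8.06 normalised counts, with library b apart from the rest, and the mean was 12.5 ± 8.95 (SD, n = 4), or 8.01 without library b. Macrophage libraries had 14.4, 5.84, 17.5 and 3.93, a mean of 10.4 ± 6.57 (SD, n = 4), and the groups overlap. The dendritic cell mean was 10435 in the authors' deposited table, 837 times the osteoclast mean and 1001 times the macrophage mean. Log2 fold changes in the authors' deposited table were -9.28 ± 0.46 for osteoclasts over dendritic cells, 0.23 ± 0.49 for osteoclasts over macrophages and 9.51 ± 0.46 for dendritic cells over macrophages. Per kilobase of exon the dendritic cell mean was 14513, rank 68, between Arg1 and Tgm2.

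Macrophage libraries a and c, which had the most Ear2, also had the most H2-Ab1, a class II antigen presentation gene, with 591 and 1097 normalised counts against 142 and 121 in libraries b and d. Ciita, the master regulator of class II genes, had 73.8 and 90.6 in libraries a and c against 14.6 and 12.8 in b and d. Summed over the 7 of 8 dendritic markers recovered, the 4 macrophage libraries had 1679, 767, 4151 and 679. Without libraries a and c the macrophage mean of Ear2 was 4.89, a change of over 1.5-fold, and that of Chil3 was 64.1, of Arg1 60.2 and of Retnla 0.983. The part of these libraries' class II signal in the Ear2 level was not tested.

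Ear2 has near copies, and of the 3 start regions compared with its own (Ear1, Ear6 and Rnase2a) the nearest is that of Ear1, another eosinophil-associated ribonuclease. Both regions are shown because only 4 positions separate them: chr14:44102404-44102703 on the plus strand for Ear2 and chr14:43819590-43819889 on the minus strand for Ear1 (RefSeq, GRCm38.p6). Capitals mark the differing or unmatched bases where the copies align.
Ear2: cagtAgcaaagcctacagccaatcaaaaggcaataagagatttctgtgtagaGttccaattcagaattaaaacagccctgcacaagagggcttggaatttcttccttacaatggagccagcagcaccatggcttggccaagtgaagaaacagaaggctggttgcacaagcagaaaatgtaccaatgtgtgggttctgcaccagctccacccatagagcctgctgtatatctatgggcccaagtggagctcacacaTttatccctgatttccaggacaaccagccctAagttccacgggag
Ear1: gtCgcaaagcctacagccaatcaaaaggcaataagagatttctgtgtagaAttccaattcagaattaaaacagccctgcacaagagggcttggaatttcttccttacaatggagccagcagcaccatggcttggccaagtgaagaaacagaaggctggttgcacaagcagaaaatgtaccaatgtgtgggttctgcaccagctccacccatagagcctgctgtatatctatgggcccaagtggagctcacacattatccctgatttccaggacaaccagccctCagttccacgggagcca
Of 298 aligned columns 294 were identical (98.7%), 3 differed and 1 was a gap. Identity to Ear2 was 86.2% for the start region of Ear6 and 81.1% for that of Rnase2a. Ear2 and Ear1 both hold TTGCNNAA, at -90 and -92. Neither window holds TTCNNNGAA, TTCNNNNGAA, GAGGAA or TATAAA.

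In the transcripts, 41.5% of the 670 stretches of 50 bases of Ear2 occur in another gene, 158 of them in Ear1, 174 in Ear10 and 100 in the pseudogene Ear-ps2. For Ear1 the share was 57.4% of 664. The division of reads between Ear2, Ear1 and Ear10 is therefore uncertain, while Rnase2a shares 0 of its 641 stretches and Ear6 shares 0.954% of 943.

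Tgm2 lies on chr2:158116402-158146436 on the minus strand and differed from the other 4 genes in being high in every cell type. Its mean in the authors' deposited table was 6799 in osteoclasts, 18737 in dendritic cells and 8200.0 in macrophages, a ratio of 2.76 for dendritic cells over osteoclasts and 2.28 for dendritic cells over macrophages. The log2 fold change in the authors' deposited table was -1.43 ± 0.31 for osteoclasts over dendritic cells, -0.26 ± 0.31 for osteoclasts over macrophages and 1.17 ± 0.31 for dendritic cells over macrophages. Osteoclasts and macrophages therefore differ by less than the standard error. By size the change ranked 2999th lowest of 21217 for osteoclasts over dendritic cells. Rprd1b overlaps Tgm2 on the opposite strand over 15896 bases, with means of 975 in osteoclasts, 958 in dendritic cells and 881 in macrophages by the authors' deposited table. The antisense transcript Gm20412 overlaps 752 bases and had means of 1465 in osteoclasts, 4106 in dendritic cells and 1723 in macrophages by the authors' deposited table. Libraries were stranded, but the sources used here do not give the strand setting of the counting. Of the 4601 stretches of 50 bases in the spliced Tgm2 sequence, 536 also occur in Gm20412 and 325 in Rprd1b, and 3740 occur in Tgm2 alone. Without strand, reads in the shared stretches cannot be told apart.

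The families of the 5 genes were then laid out per kilobase of exon. In the chitinase family 2 of 6 tested genes, Chil4 and Chil1, were called lower in osteoclasts than in dendritic cells by the authors' deposited table, where 20.1% of all genes were, and 0 higher, with a median log2 fold change of -1.49 against -0.05 over all genes tested. Chil1, a chitinase-like lectin of neutrophils and macrophages, had a mean of 0.248 in osteoclasts, 193 in dendritic cells and 0.489 in macrophages by the authors' deposited table. Its dendritic cell libraries had 304, 79.4, 234 and 156 normalised counts, lowest in library b. Chid1 and Ctbs, lysosomal family members, were near equal in all cell types, with Chid1 at 1443 in osteoclasts, 1273 in dendritic cells and 1323 in macrophages by the authors' deposited table. Between osteoclasts and macrophages 0 of 4 tested members were called in the authors' deposited table, and 0 had an unadjusted p under 0.05 in the authors' DESeq2 test.

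Retnlg, the resistin-like gene of neutrophils, was the other resistin family gene expressed in dendritic cells. It had a mean of 0.248 in osteoclasts, 179 in dendritic cells and 0.733 in macrophages by the authors' deposited table, a log2 fold change of -7.63 ± 0.79 for osteoclasts over dendritic cells and 7.03 ± 0.72 for dendritic cells over macrophages. Its dendritic cell libraries had 238, 65.1, 306 and 107, lowest in library b. Retn was near 1 in all 3 cell types and Retnlb at 0.

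Of 10 tested ribonuclease A genes, 6 were called lower in osteoclasts than in dendritic cells and 0 higher in the authors' deposited table (20.1% and 16.8% of all genes). Between dendritic cells and macrophages 5 of 10 were called higher in dendritic cells and 2 lower in the authors' deposited table (20.3% and 16.4% of all genes). Rnase2a, Ear6 and Ear1, all of the eosinophil-associated group, stood furthest out in both. Rnase2a had a mean of 3.25 in osteoclasts, 3168 in dendritic cells and 2.68 in macrophages by the authors' deposited table, and its reads are not shared with another gene. Ear6 had a mean of 1.25 in osteoclasts, 1291 in dendritic cells and 2.68 in macrophages by the authors' deposited table. Ear1 had 0.751 in osteoclasts, 650 in dendritic cells and 0.244 in macrophages by the authors' deposited table. Rnase4 and Ang, which share a promoter region and act in RNA cleavage and vessel growth, had their highest means in macrophages. Between osteoclasts and dendritic cells Ang was called lower in osteoclasts, at -0.95 ± 0.40, and Rnase4 was not called, at -0.88 ± 0.42, in the authors' deposited table. Rnase4 was lower in dendritic cells than in macrophages, with a log2 fold change of -2.25 ± 0.42 for dendritic cells over macrophages by the authors' deposited table. Ang gave -1.59 ± 0.39 for the same comparison in the authors' deposited table. Both were also lower in osteoclasts than in macrophages, by -3.13 ± 0.42 for Rnase4 and -2.54 ± 0.39 for Ang in the authors' deposited table.

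Tgm1, the keratinocyte transglutaminase, was the only other transglutaminase called, at 16 ± 6.75 in osteoclasts, 345 ± 187 in dendritic cells and 13.6 ± 8.08 in macrophages (SD, n = 4 each). Its log2 fold change in the authors' deposited table was -4.26 ± 0.43 for osteoclasts over dendritic cells and 4.48 ± 0.43 for dendritic cells over macrophages. Tgm3 to Tgm7 and Epb42 had means of at most 2.90 in each cell type in the authors' deposited table.

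**Figure D2:**
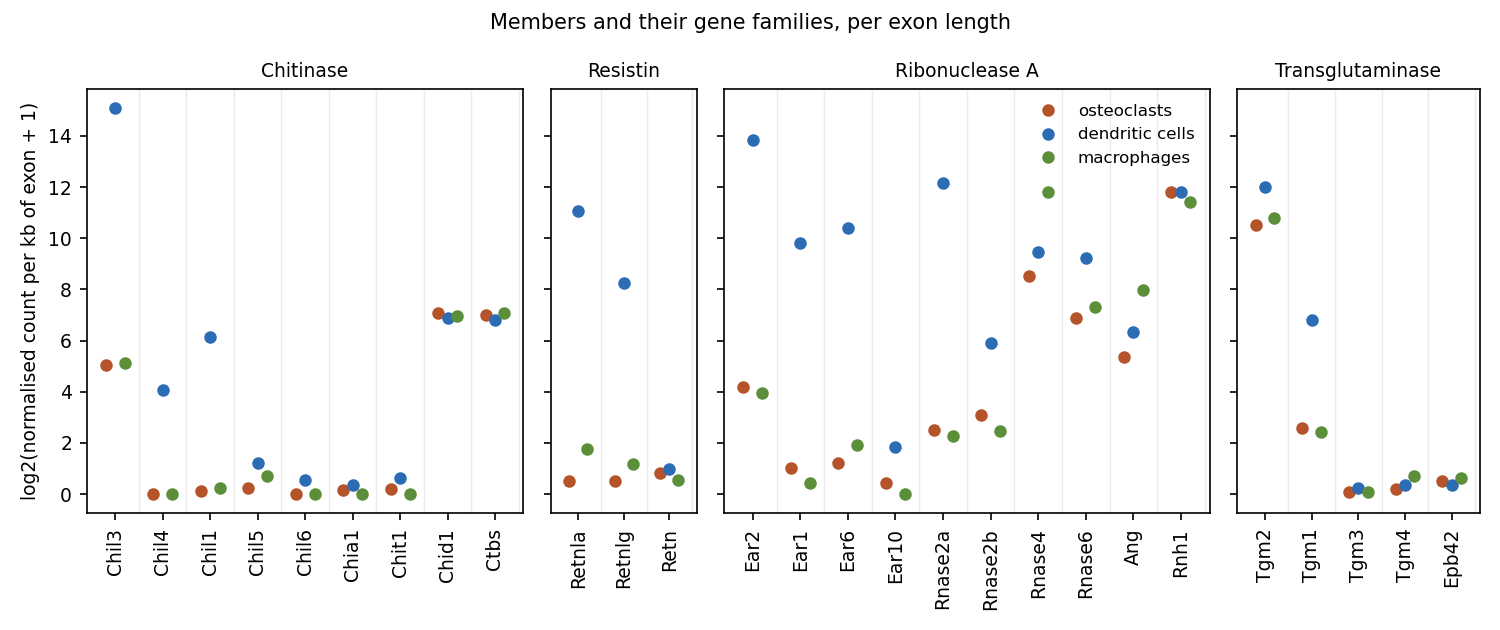
The members and their gene families, with log2(normalised count per kb of exon + 1) on the y axis and 1 column per gene, osteoclasts left, dendritic cells in the middle and macrophages right. Points are the authors' means. Chil3, Chil1, Retnla, Retnlg, Ear2, Ear1, Ear6 and Rnase2a are high in dendritic cells and low in the other cell types, while Chid1, Ctbs and Rnh1 are close to equal.

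Family members and markers of other cell types did not all follow the same dendritic cell libraries. Ear1 had 716, 988, 311 and 584 normalised counts in dendritic cell libraries a to d, and Ear6 had 1460, 1727, 808 and 1167. Epx, the eosinophil peroxidase, had 1499, 1653, 472 and 933, and Prg3, an eosinophil granule protein, 243, 315, 71.5 and 167. All 4 of these genes were highest in library b and lowest in library c. Chil1 and Retnlg were lowest in library b, as were Ly6g, a neutrophil surface protein, with 271, 81.4, 271 and 162, and Camp, a neutrophil granule peptide, with 354, 69.2, 238 and 223. Chil4 and Tgm1 were highest in library c, where Tgm1 had 609 against 172 to 322 in the others. The genes of this paragraph were picked from the families and marker lists after their values were seen. Of the 6 eosinophil markers recovered in dendritic cells, those not named here were not all highest in library b.

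**Figure D3:**
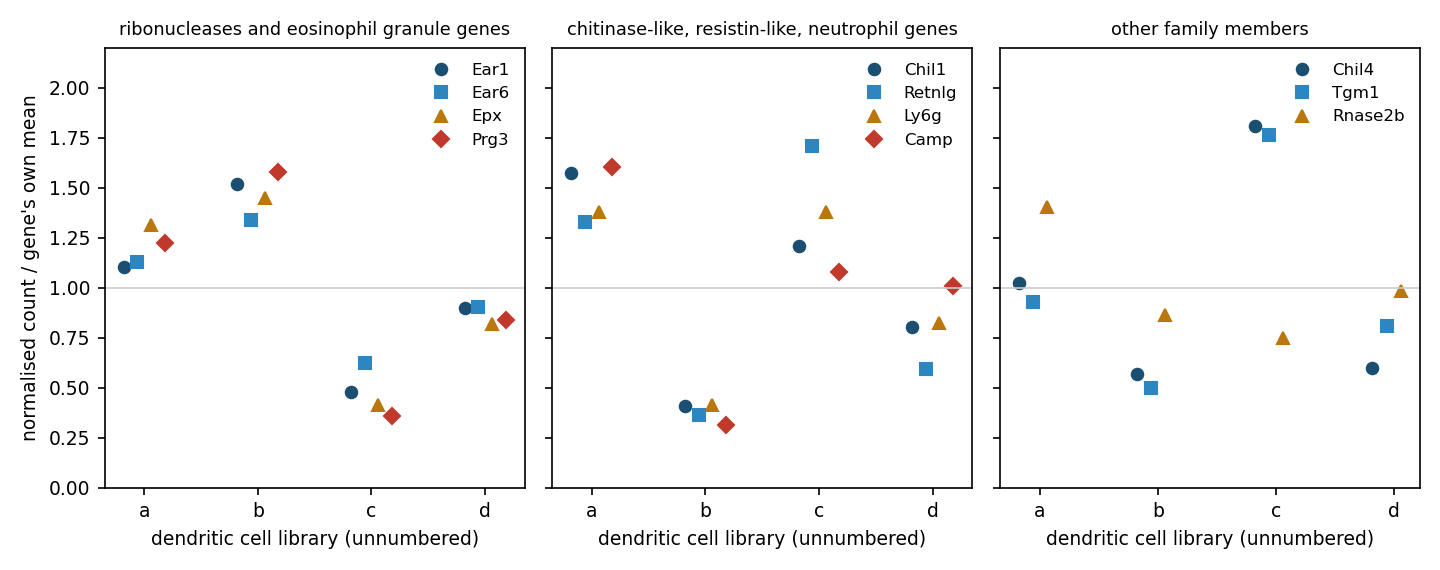
Dendritic cell libraries a to d on the x axis and each gene's normalised count over its own mean on the y axis, 1 point per gene and library, with the line at 1 marking the mean. Ear1, Ear6, Epx and Prg3 are lowest in library c and highest in library b, Chil1, Retnlg, Ly6g and Camp are lowest in library b, and Chil4 and Tgm1 are highest in library c.

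Whole marker lists were compared between the cell types. In this comparison of dendritic cells with macrophages, 20.3% of all genes were called higher. Of 8 eosinophil markers, 7 were called higher in dendritic cells than in macrophages and 1, Ccr3, lower in the authors' deposited table, and their means summed to 402 in osteoclasts, 10151 in dendritic cells and 187 in macrophages. Summed over recovered markers, single libraries ranged from 252 to 509 in osteoclasts (8 of 8), from 1674 to 4204 in dendritic cells (6 of 8) and from 145 to 233 in macrophages (8 of 8). Prg3 was at 0 in osteoclasts. Ear6 is in this list as well as in the ribonuclease family, and Retnlg is in the neutrophil list as well as in the resistin family. Of 14 neutrophil markers, 13 were called higher in dendritic cells than in macrophages by the authors' deposited table, with sums of 502 in osteoclasts, 35564 in dendritic cells and 449.6 in macrophages. Recovered neutrophil markers summed to 340 to 740 per osteoclast library (14 of 14), 754 to 1681 per dendritic cell library (8 of 14) and 230.1 to 870 per macrophage library (14 of 14). In dendritic cells the most abundant markers of both lists were not recovered and are left out of these ranges. Among eosinophil markers they are Prg2 and Siglecf, with dendritic cell means of 4431 and 2609. Among neutrophil markers they are Ngp, Ltf, S100a8, S100a9, Mmp8 and Lcn2, with dendritic cell means from 1871 to 18254. The dendritic cell ranges are therefore not comparable with those of osteoclasts and macrophages. Elane, Ctsg and Prtn3 were at 0 in osteoclasts, and Camp and Ly6g in macrophages. The part of eosinophils or neutrophils in the levels of Chil3, Arg1, Retnla and Ear2 was not tested.

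Markers of alveolar macrophages, lung cells that depend on GM-CSF, were also higher. All 8 of 8 were called higher in dendritic cells than in macrophages by the authors' deposited table, beside 20.3% of all genes. Their means summed to 1064 in osteoclasts, 19705 in dendritic cells and 1455 in macrophages. Siglecf is in this list and in the eosinophil list, and Ear1 is also in the ribonuclease family, so the counts are not separate. The same share of all genes stands beside the next count. Of 11 tested markers of mast cells and basophils, 9 were called higher in dendritic cells than in macrophages by the authors' deposited table, with sums of 18.2 in osteoclasts, 1016 in dendritic cells and 30.3 in macrophages. Il4 itself, which is in that list, was not called between dendritic cells and macrophages. In osteoclasts it was called lower than in dendritic cells and than in macrophages, with deposited log2 fold changes of -2.87 and -1.89. Il4 had 48.8, 19.3, 45.9 and 32.8 normalised counts in the dendritic cell libraries, 3.97, 8.94, 0 and 4.03 in osteoclasts, and 34.5, 17.5, 9.74 and 9.83 in macrophages.

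The upstream pathway was examined next, in 6 lists of 13 to 24 tested genes. Among 14 genes of IL-4 and IL-13 signalling, 10 were called lower and 2 higher in osteoclasts than in dendritic cells by the authors' deposited table, with a median log2 fold change of -1.95 against -0.05 over all genes tested, of which 20.1% were lower and 16.8% higher. Between dendritic cells and macrophages 8 were called higher and 2 lower in the authors' deposited table (median 0.82 against 0.05), beside 20.3% and 16.4% of all genes. Between osteoclasts and macrophages 4 were called higher and 3 lower in the authors' deposited table (median -0.22 against -0.03), beside 14.5% and 14.7%. The same shares of all genes stand behind the counts of the next lists. Il4ra, the receptor chain shared by IL-4 and IL-13, had a mean of 1961 in osteoclasts, 6975 in dendritic cells and 4135 in macrophages by the authors' deposited table. Stat6 was close to equal, at 9345 in osteoclasts, 8368 in dendritic cells and 10746 in macrophages by the authors' deposited table, with a log2 fold change of -0.36 ± 0.09 for dendritic cells over macrophages. Cish, a feedback inhibitor induced by STAT5, had the largest change, -8.55 ± 0.24 for osteoclasts over dendritic cells and 8.08 ± 0.22 for dendritic cells over macrophages by the authors' deposited table. Socs1, another feedback inhibitor, had -4.65 ± 0.35 for osteoclasts over dendritic cells by the authors' deposited table. Il2rg, the common gamma chain used by IL-4, was 1 of the 2 genes higher in osteoclasts than in dendritic cells, by 0.41 ± 0.12 on the log2 scale in the authors' deposited table. Il13ra2, a decoy receptor for IL-13, was the other, higher in osteoclasts than in dendritic cells by 5.62 ± 0.80 and than in macrophages by 3.63 ± 0.68 on the log2 scale in the authors' deposited table.

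Most transcription regulators of alternative activation were higher in dendritic cells. Of 14 tested, 10 were called lower and 1 higher in osteoclasts than in dendritic cells by the authors' deposited table (median -1.19), and 13 were called higher and 1 lower in dendritic cells than in macrophages (median 1.91). Irf4, which acts downstream of STAT6 and in dendritic cells, had a mean of 35.0 in osteoclasts, 11403 in dendritic cells and 123 in macrophages by the authors' deposited table. Batf3, a dendritic cell regulator, had -7.29 ± 0.48 for osteoclasts over dendritic cells by the authors' deposited table and Egr2, an IL-4 target, -3.29 ± 0.31. Between osteoclasts and macrophages 6 were called higher and 4 lower in the authors' deposited table, led by Ppargc1b, a mitochondrial coactivator, with 3.30 ± 0.28.

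Surface receptors were split between dendritic cells and macrophages. Of 18 tested, 11 were called lower and 3 higher in osteoclasts than in dendritic cells by the authors' deposited table (median -2.56), and 10 were higher and 6 lower in dendritic cells than in macrophages (median 1.33). Mgl2, a galactose-type lectin, had a mean of 40.2 in osteoclasts, 36265 in dendritic cells and 60.7 in macrophages by the authors' deposited table. Pdcd1lg2, the PD-L2 checkpoint ligand, had 7.98 in osteoclasts, 2483 in dendritic cells and 3.63 in macrophages by the authors' deposited table. Folr2 and Stab1, receptors of tissue macrophages, were lower in dendritic cells than in macrophages, by -8.47 ± 0.30 and -4.76 ± 0.35 for dendritic cells over macrophages by the authors' deposited table. Mrc1 and Cd163, both widely used marks of alternative activation, had their highest mean in macrophages. Cd163 had 148 in dendritic cells and 824 in macrophages by the authors' deposited table and was called lower in dendritic cells. Mrc1 had 12216 in dendritic cells and 20747 in macrophages by the authors' deposited table, a difference that was not called. Between osteoclasts and macrophages 8 of 17 were called lower and 1 higher in the authors' deposited table, with Cd163 at -3.51 ± 0.49 and Mrc1 at -3.0 ± 0.71.

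Secreted products and enzymes had the medians furthest from 0 of the 6 lists in both comparisons with dendritic cells. Of 20 tested, 16 were called lower and 2 higher in osteoclasts than in dendritic cells by the authors' deposited table (median -3.12), and 14 were higher and 2 lower in dendritic cells than in macrophages (median 3.21). The chemokine Ccl17 had a mean of 64.2 in osteoclasts, 69230 in dendritic cells and 64.9 in macrophages by the authors' deposited table, with a p listed as 0, so no standard error can be given. Its partner Ccl22, which shares the receptor CCR4, had 325 in osteoclasts, 52708 in dendritic cells and 104 in macrophages by the authors' deposited table. Il10 and Igf1, an anti-inflammatory cytokine and a growth factor, were lower in dendritic cells than in macrophages, at -5.43 ± 0.68 and -2.55 ± 0.18 for dendritic cells over macrophages by the authors' deposited table. Between osteoclasts and macrophages 5 of 19 were called higher and 5 lower in the authors' deposited table (median -0.02), with Il1rn, the IL-1 receptor antagonist, at 3.22 ± 0.22 and the coagulation factor gene F13a1 at -3.80 ± 1.01.

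Arginine and polyamine genes, which handle the substrate and product of Arg1, were called in both directions. Of 24 tested, 9 were called higher and 5 lower in osteoclasts than in dendritic cells by the authors' deposited table (median -0.02), beside 16.8% and 20.1% of all genes. Between dendritic cells and macrophages 6 were called higher and 6 lower in the authors' deposited table (median 0.14), beside 20.3% and 16.4%, and between osteoclasts and macrophages 8 were higher and 5 lower (median 0.18), beside 14.5% and 14.7%. The share lower in osteoclasts than in dendritic cells is close to that of all genes. Slc7a2, an arginine transporter, had a log2 fold change of -3.54 ± 0.76 for osteoclasts over dendritic cells and 4.09 ± 0.76 for dendritic cells over macrophages by the authors' deposited table. Ass1, which makes the precursor of arginine from citrulline, had a mean of 3640.1 in osteoclasts, 16673 in dendritic cells and 941 in macrophages by the authors' deposited table. Arg2, the mitochondrial arginase, had 2.99 in osteoclasts, 112 in dendritic cells and 9.94 in macrophages by the authors' deposited table. Ckb, brain creatine kinase, was higher in osteoclasts than in dendritic cells by 2.88 ± 0.32 on the log2 scale in the authors' deposited table. Nos2, which competes with Arg1 for arginine, had means of 33.5 in osteoclasts, 1530.4 in dendritic cells and 2.92 in macrophages by the authors' deposited table, which gives it no p-value.

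Most genes of classical activation were also higher in dendritic cells. Of 13 tested, 11 were called lower and 1 higher in osteoclasts than in dendritic cells by the authors' deposited table (median -2.55), and 10 were called higher and 0 lower in dendritic cells than in macrophages (median 1.92). Cd38, an NAD-consuming ectoenzyme, had -8.43 ± 0.54 for osteoclasts over dendritic cells by the authors' deposited table, and the cytokine genes Il6 and Il1b had -7.23 ± 0.90 and -6.32 ± 0.78. Cxcl10, an interferon-induced chemokine, was the 1 gene higher in osteoclasts, by 1.75 ± 0.33 on the log2 scale in the authors' deposited table. In osteoclasts against macrophages 2 of 13 were called higher and 4 lower in the authors' deposited table (median -0.60), beside 14.5% and 14.7% of all genes, so the share higher is close to that of all genes.

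**Figure D4:**
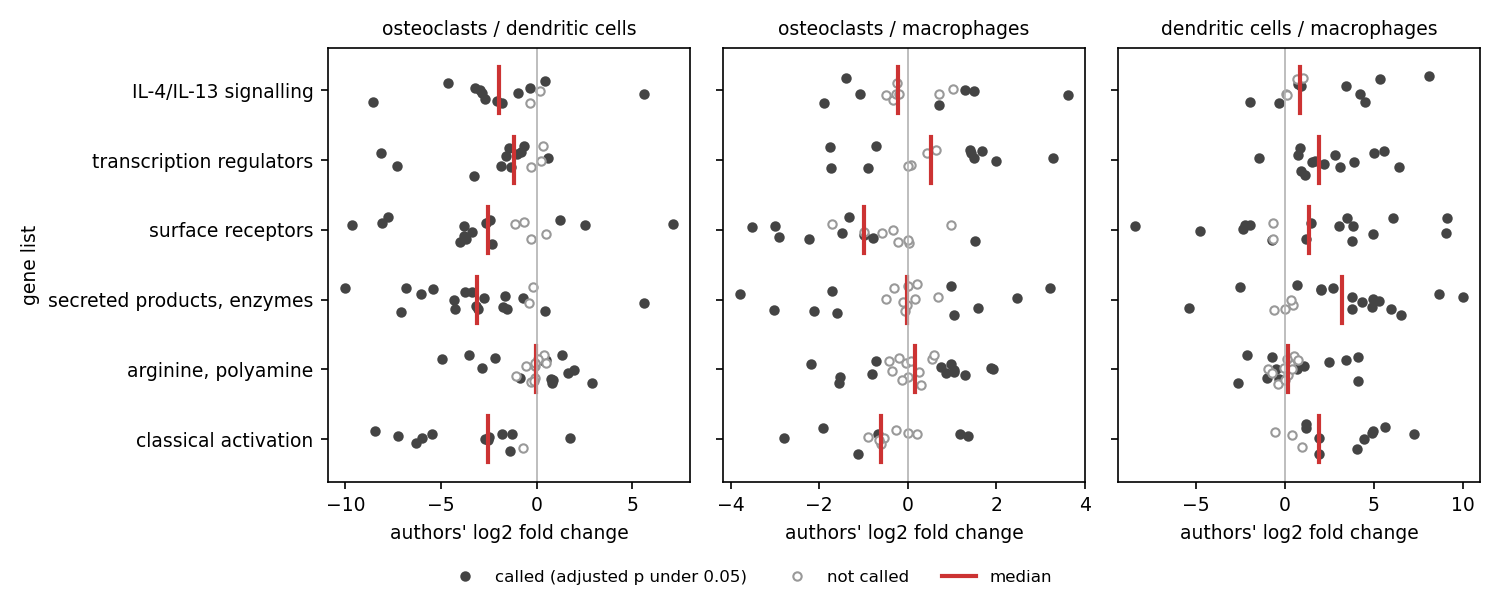
The authors' log2 fold change on the x axis for each gene of 6 lists (rows), in osteoclasts over dendritic cells, osteoclasts over macrophages and dendritic cells over macrophages from left to right. Filled points are called, open points are not and red lines are medians. Both panels with dendritic cells show medians away from 0 for every list but arginine and polyamine genes, for example -3.12 and 3.21 for secreted products and enzymes.

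The genes closest in pattern to each of the 5 were named by Euclidean distance over the 3 cell types between centred log2(mean + 1), among 10538 genes with a mean of at least 100 in some cell type. For Chil3 they were Ccl17 at 0.076, Ccn3 at 0.116 and Car4 at 0.186. For Arg1 they were Rnase2a at 0.214, Ptx3 at 0.236 and Ccr7 at 0.25, and for Ear2 they were Rnase2a at 0.061, Ptx3 at 0.095 and Asgr2 at 0.148. Retnla was nearest to Mgl2 at 0.281, Gpr171 at 0.290 and Ltf at 0.389. Tgm2 was nearest to Adipor2 at 0.021, Camk2g at 0.028 and Sh3pxd2b at 0.034, genes that in the authors' deposited table were likewise high in all cell types. Distances over 3 points place many genes close together, and the points are means of 4 libraries.

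The balance of higher and lower calls over all genes depends on scaling. Making the totals of the cell types equal moved the log2 fold changes by 0.19 for osteoclasts over dendritic cells and by -0.15 for dendritic cells over macrophages. The calls of osteoclasts against dendritic cells over all genes were then 5323 higher and 3342 lower, set beside 3554 higher and 4275 lower as deposited, and those of dendritic cells against macrophages 3459 higher and 4625 lower, set beside 4212 higher and 3396 lower. All 5 genes kept their direction and their calls in the 3 comparisons under that scaling.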

How the data were processed

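RNA of 12 libraries, 4 per cell type, was read as single 50-base reads from a stranded kit, per the labels' protocols. DESeq2 2.13, Cufflinks 2.1.1, TopHat2, Bowtie2, bcl2fastq and the GRCm38 build are named, per the submitters' processing notes, and the sources used here give neither their roles nor the annotation. The authors' deposited table gives, per the file headers, mean normalised counts (a signal scaled by size factor), log2 fold changes, p-values and adjusted p-values for each pair of cell types. Its sign for dendritic cells and macrophages, macrophages over dendritic cells, was turned.

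No column per library exists, so the planned count test could not be run and the calls are the authors', at adjusted p under 0.05. Standard errors were implied from each fold change and its p-value, taken as two-sided and normal. Whole reads were solved for means up to 1300 and used only with 1 solution: 144 of 146 listed genes in osteoclasts, 106 of 110 in dendritic cells and 150 of 154 in macrophages. Both steps were tested on simulated data, with limits. The simulated recovery had a lower limit on the mean and size factors drawn from a wider range, so it does not cover the highest means. The standard errors were only turned back into p-values, which does not test their normal form. Symbols matched 45138 identifiers and 934 had none. Promoters matched 3 of 5 members, not Arg1 and Tgm2. Members and lists were chosen with earlier results of these data known. Named are all members and family genes, for each list the genes with the 3 highest or 3 lowest called fold changes, the 3 nearest in pattern and markers. Nos2 and genes that overlap or share sequence with a member were added after their values were seen. The result of 1 listed transcription regulator is not reported here. Python 3.11.15, SciPy 1.17.1, pandas 2.3.3 and Biopython 1.88 were used. Alternatives were totals made equal, upper-quartile scaling, all genes with a p-value adjusted together, adjusted p under 0.01, pseudocounts of 1 and 10, and leaving out libraries.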

Additional observations from a re-analysis of the deposited data

Results flagged for a closer look

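Single libraries were looked at wherever 4 could be recovered, for members with any read and for family genes and some others with at least 20 reads in all. The others were taken from Prg3, Epx, Alox15, Ly6g, Camp, Cxcr2, Mcpt8, Prss34, H2-Ab1, Ciita, Il4 and Il13. Together these gave 46 groups of 4. In 5 of them 1 library lay apart from the other 3, judged by its gap to the nearest library over the range of the group. A marked library can therefore still be close to the others in size. The rule marks about 1 in 20 groups of normally spread values, a rate that does not hold for the few whole reads of Retnla. A group with a single read is always marked. The count of 5 is therefore not compared with chance. Retnla in osteoclasts had its single read in library b, at 0.994 normalised counts. Ear2 in osteoclasts had 25.8 in library b and 6.95 to 9.01 in the others. Ctbs, a lysosomal chitobiase, had 842 in osteoclast library d, with a gap of 0.942 of the range. Ang, a ribonuclease, had 84.6 in osteoclast library d, with a gap of 0.863 of the range. Retnla in macrophages had 0 in library b, set beside 1.92 to 1.97 in the others, that is 0 reads beside 2 in each.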

How the results depend on the processing

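No paired analysis was possible because the deposited table holds means per cell type and no column that can be tied to a mouse. All 5 genes kept their direction and their calls with totals made equal, with upper-quartile scaling and with all genes with a p-value adjusted together. With totals made equal, 1 chitinase family gene was called higher in osteoclasts than in dendritic cells in place of 0, and 1 ribonuclease A gene higher in osteoclasts than in macrophages in place of 0. With upper-quartile scaling 5 genes of IL-4 and IL-13 signalling were lower in osteoclasts than in macrophages in place of 3. With all genes adjusted together 1 of them was lower in dendritic cells than in macrophages in place of 2. A pseudocount of 10 on the ratio of means moved Retnla to -6.97 for osteoclasts over dendritic cells, -0.16 for osteoclasts over macrophages and 6.81 for dendritic cells over macrophages, and Ear2 to 9.0 for dendritic cells over macrophages. Without each library in turn, Chil3 averaged 48.2 to 55.3 in osteoclasts and 52.9 to 60.9 in macrophages, Arg1 66.5 to 70.4 and 45.6 to 55.7, Retnla 0 to 0.331 and 1.29 to 1.94, and Ear2 8.01 to 14.3 and 8.05 to 12.6. Leaving out macrophage libraries a and c together was chosen after seeing the data. Depth limits Retnla in osteoclasts and macrophages, where the ratios rest on 1 and 6 reads. Dendritic cell libraries of Chil3, Arg1, Ear2 and Tgm2 could not be resolved, so their spread there is known only through the authors' p-values.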
